A study of Caenorhabditis elegans with 6 samples.

Results

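The secretory pathway, the endolysosomal system and the proton pump of these compartments are described here by 101 of the 19973 protein-coding genes on the nuclear chromosomes of C. elegans. The genes were chosen by name, as those whose names start with sec-, trap-, rab-, vps-, snx- or vha- in the WBcel235 annotation. The group was selected on measured values as well, since its promoter peaks were already known to be frequent when it was put together. The term bound means that the summit of a peak fell within the promoter window, from 1000 bp upstream to 200 bp downstream of a 5′ end of a protein-coding transcript. Counts of bound genes below are therefore descriptions and carry no test. The name classes held 19 sec, 4 trap, 20 rab, 31 vps, 7 snx and 20 vha genes.

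The peaks come from chromatin immunoprecipitation sequencing of ELT-3, a GATA-type zinc finger factor of the epidermis. All animals were mixed-sex whole larvae at the third larval stage (L3) of strain OP75, with the genotype unc-119(ed3) III and the transgene wgIs75, which carries elt-3 with GFP and FLAG at its C terminus. There was 1 group of 4 biological replicates, numbered 1, 2, 4 and 5, from 6 libraries, among them 3 technical libraries of replicate 2, counted once. There was no second condition and no untagged strain among the lists. Because the tissue was the whole larva, a peak does not say in which cells the factor was bound, and the transgene adds copies of elt-3. Nothing states that the replicates came from separate cultures, and their spread may thus be technical.

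Secreted and membrane proteins enter the endoplasmic reticulum (ER) through the SEC61 channel, to which the translocon-associated protein (TRAP) complex is attached. COPII coats then carry them towards the Golgi, and Rab GTPases, tethers such as the exocyst and SNARE proteins direct vesicles to their targets. Endocytosed proteins are sorted by sorting nexins, retromer and ESCRT complexes. The V-ATPase, built from a membrane sector (V0) and a cytosolic sector (V1), acidifies endosomes and lysosomes. The worm epidermis relies on this machinery to secrete the cuticle at each molt.

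The optimal list is the authors' final list of reproducible peaks, and a rank counts peaks from the strongest by the authors' signal value. Positions are given relative to the 5′ end, negative upstream. The extended pooled set is the strongest peaks of the list called on all replicates pooled, 3 times as many as the optimal list holds. The pooled and replicate lists hold background regions besides peaks, so their weaker entries may be background. In each replicate, the leading set is as many of its strongest peaks as the optimal list holds, and the extended set is 3 times that number. Below are the 101 bp around the summits of 9 optimal peaks that cover the translocon, coat, Rab, ESCRT and V-ATPase genes, followed by 2 weaker pooled peaks that do hold a GATA motif. The 2 weaker peaks were picked because they hold the motif, and 5 of the 8 summits bound only in the extended pooled set hold none, like all 15 optimal ones. The motif was AGATAA or AGATAG or TGATAA or TGATAG on either strand, and capitals mark it. Bases are the plus strand of WBcel235 (ce11), read from the RefSeq assembly, 5′ to 3′.
sec-61.G (chrV:10897330-10897430): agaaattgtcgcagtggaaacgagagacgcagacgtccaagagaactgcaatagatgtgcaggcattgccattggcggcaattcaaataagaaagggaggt
trap-2 (chrX:768217-768317): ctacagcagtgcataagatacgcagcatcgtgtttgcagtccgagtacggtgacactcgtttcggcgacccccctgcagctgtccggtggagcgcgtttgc
sec-61.B and trap-3 (chrIV:2389089-2389189): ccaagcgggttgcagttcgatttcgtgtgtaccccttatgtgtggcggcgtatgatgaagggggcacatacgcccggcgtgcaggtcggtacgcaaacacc
sec-24.1 (chrIV:11566251-11566351): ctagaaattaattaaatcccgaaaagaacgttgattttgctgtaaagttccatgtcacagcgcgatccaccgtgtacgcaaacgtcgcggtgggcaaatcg
rab-7 (chrII:11967659-11967759): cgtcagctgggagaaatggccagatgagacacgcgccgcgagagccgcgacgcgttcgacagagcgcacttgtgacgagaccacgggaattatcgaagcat
vps-60 (chrV:8606459-8606559): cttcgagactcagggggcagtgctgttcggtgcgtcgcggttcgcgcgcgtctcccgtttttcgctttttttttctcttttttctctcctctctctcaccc
vha-12 (chrX:4190645-4190745): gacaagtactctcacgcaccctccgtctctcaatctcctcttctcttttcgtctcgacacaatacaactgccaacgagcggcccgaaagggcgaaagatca
vha-8 (chrIV:6790568-6790668): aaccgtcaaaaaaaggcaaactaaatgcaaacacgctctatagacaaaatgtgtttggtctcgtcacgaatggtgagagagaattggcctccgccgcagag
vha-1 (chrIII:9780776-9780876): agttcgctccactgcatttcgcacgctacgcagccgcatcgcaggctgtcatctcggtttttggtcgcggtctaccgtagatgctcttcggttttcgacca
vha-2 (chrIII:9782001-9782101): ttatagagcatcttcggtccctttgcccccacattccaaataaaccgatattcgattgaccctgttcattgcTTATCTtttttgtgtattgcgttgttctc
vps-26 (chrIV:9341814-9341914): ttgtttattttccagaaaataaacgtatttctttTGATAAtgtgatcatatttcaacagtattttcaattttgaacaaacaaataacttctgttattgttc

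Of the 101 genes, 16 (15.8%, Wilson 95% interval 9.99 to 24.2) had an optimal summit in a promoter, beside 2.95% of all protein-coding genes. These 16 genes rested on 15 summits, because sec-61.B and trap-3 share 1. In the extended pooled set 24 genes (23.8%, 16.5 to 32.9) were bound, beside 7.84% of all genes. With all 14525 pooled peaks, 43 genes were bound, beside 24.2% of all genes. The intervals cover counting error only. Among the 250 strongest pooled peaks 2 genes (1.98%) were bound, beside 0.736% of all genes. Among the 523 strongest 12 (11.9%) were, beside 1.47% of all genes. The median signal of the optimal summits was 56.8 at these genes and 50.1 at the other promoter summits. Ribosomal protein genes, which also had frequent promoter peaks, were bound in 25 of 76 cases in the optimal list and 42 of 76 in the extended pooled set.

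**Figure D1:**
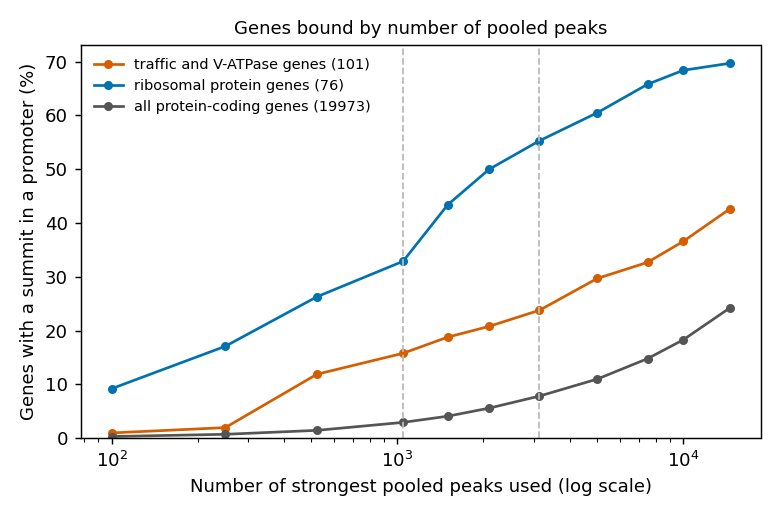
Percentage of genes with a summit in a promoter (y axis) against the number of strongest pooled peaks used (x axis, log scale), for the traffic and V-ATPase genes, the ribosomal protein genes and all protein-coding genes. Dashed lines mark the sizes of the optimal list and the extended pooled set. The traffic and V-ATPase genes rise from 1.98% at 250 peaks to 11.9% at 523, and all genes from 0.736% to 1.47%.

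The leading sets of replicates 1, 2, 4 and 5 had 7, 9, 13 and 15 bound genes (mean 11.0 ± 3.65, SD, n = 4). The share of all genes bound in the same peaks was 2.13%, 2.41%, 2.88% and 2.75%. The share of the 101 genes was therefore above that of all genes in each of the 4 replicates, and lowest in replicate 1. In the extended sets the numbers were 13, 17, 23 and 26 (mean 19.8 ± 5.85, SD, n = 4), beside 5.74%, 6.11%, 7.39% and 7.53% of all genes. Bound in the leading sets of at least 2 replicates were 15 genes, beside 2.42% of all genes. That count was 9 without replicate 4 and 9 without replicate 5. Replicates 4 and 5 had 10 of these genes in common, which is 76.9% of those in replicate 4 and 66.7% of those in replicate 5. Over all genes the same overlap was 51.7% and 54.1%. Replicates 2 and 5 had 8 in common, 88.9% and 53.3% of theirs, where over all genes 193 of the 482 of replicate 2 were shared, 35.2% of those of replicate 5. Replicates 1 and 2 had 4 in common, 57.1% and 44.4% of theirs, against 34.4% and 30.3% over all genes. For replicates 1 and 5 it was 5, 71.4% and 33.3%, against 39.3% and 30.4%. For replicates 1 and 4 it was 3, 42.9% and 23.1%, against 38.1% and 28.2%. For replicates 2 and 4 it was 4, 44.4% and 30.8%, against 43.2% and 36.2%. With replicate 1 or 2 as partner, the share of replicate 4 was thus below that over all genes. The gene bound in the leading sets of all 4 replicates was sec-61.G.

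Replicate ranks below are given in the order 1, 2, 4 and 5, for the replicate peak nearest to the named summit and within 100 bp of it. Where a replicate had no such peak, another peak of the promoter window is given as such.

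The 3 annotated SEC61 channel genes were all bound in the optimal list. The highest peak of the group was at sec-61.G, the gamma subunit of the channel, with rank 36 and a signal of 117, its summit at −237 bp. In replicates 1, 2, 4 and 5 this peak ranked 59, 24, 90 and 108, the narrowest range among the 16. At sec-61.A, which encodes the pore-forming alpha subunit, the summit (rank 373, signal 56.8) lay 127 bp downstream of the 5′ end, in a 5′ UTR exon. The summit also lay at −542 bp from the ribosomal protein gene rps-18. This peak ranked 941, 45, 18193 and 604, so replicate 4 stood far below the others. The beta subunit gene sec-61.B and the TRAP gene trap-3 are divergent neighbours with 770 bp between them, and 1 summit (rank 366, signal 57.0) lay at −464 bp and −306 bp from them. That peak ranked 29373, 3773, 686 and 239. It was strong in replicates 4 and 5 and near the end of the list in replicate 1.

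The other TRAP gene bound was trap-2 (rank 275, signal 62.6, −198 bp), with ranks of 585 in replicate 1, 132 in replicate 4 and 1068 in replicate 5. Replicate 2 had no peak at the summit and another in the promoter window at rank 9379. The peak was in the leading sets of replicates 1 and 4, and just outside the leading set of replicate 5. The summit also lay at −329 bp from ile-2, which encodes an intracellular lectin. The TRAP gene trap-1 had a pooled promoter peak of rank 7978, and trap-4 had none in any list.

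Among the 7 COPII genes, only sec-24.1, which encodes a cargo-binding coat subunit, was bound in the optimal list (rank 348, signal 57.9, −107 bp). Its ranks were 375, 4070, 709 and 348. The paralog sec-24.2 and the coat genes sec-23 and sec-31 had no pooled promoter peak. Of the 6 exocyst genes, sec-15 was bound (rank 324, signal 59.3, −371 bp), with ranks of 22093, 218, 436 and 483. In replicate 1 the strongest peak of the promoter window lay elsewhere, at rank 6844. Its summit lay in a 5′ UTR exon of C28G1.2 and within 200 bp of a tRNA gene, the single such case among the 23 pooled summits at these genes. tRNA genes have near-identical copies, and how reads at them were placed is not stated. Both SNARE genes, sec-20 and sec-22, and the signal peptidase gene sec-11 were without a pooled promoter peak.

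**Figure D2:**
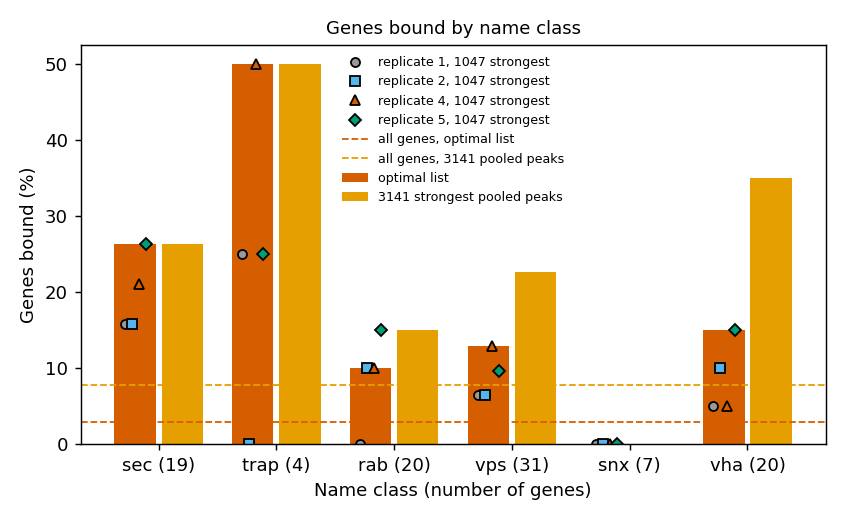
Percentage of the genes of each name class bound (y axis), with bars for the optimal list and the extended pooled set, symbols for the leading set of each replicate, and dashed lines for all genes. The sec class stands at 26.3% in both lists, the vha class rises from 3 to 7 of its 20 genes, and the snx class is at 0.

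Of the 20 Rab genes, 2 were bound in the optimal list. They were rab-7, the GTPase of late endosomes and lysosomes (rank 390, signal 55.9, −778 bp), and rab-18, a GTPase linked to the ER and lipid droplets (rank 422, signal 54.4, 58 bp downstream). The rab-7 peak ranked 1407 in replicate 1, 471 in replicate 4 and 181 in replicate 5, and replicate 2 had only another peak in the window, at rank 1932. The rab-18 peak ranked 12171 in replicate 2, 511 in replicate 4 and 910 in replicate 5, and replicate 1 had only another, at rank 1394. Both were in the leading sets of replicates 4 and 5 and in neither of the others. The rab-7 summit was nearer to W03C9.5, at −165 bp, and the rab-18 summit lay at −184 bp from the kinetochore gene kbp-4. In the extended pooled set rab-8, a GTPase of exocytic transport, was added (rank 1832, signal 32.1). Some Rab genes were strong in replicates and weak in the pooled list, and these were singled out after their values were seen. Their ranks are those of the strongest peak anywhere in the promoter window of each replicate. At rab-11.1, the GTPase of recycling endosomes, they were 27206, 186, 3024 and 540, while its strongest pooled promoter peak ranked 5798. At rab-5, the early endosome GTPase, they were 9580, 435, 2940 and 24605, with a pooled rank of 6545. The rank 26 peak of the optimal list (signal 128) lay at −1082 bp from rab-14, just outside its promoter window and nearest to nipi-3. It ranked 192, 30, 11 and 217 in the replicates.

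Among the vps genes the bound ones were mostly of the ESCRT complexes, which sort membrane proteins into vesicles inside endosomes. Of 11 ESCRT genes, 3 were bound in the optimal list and 5 in the extended pooled set. The strongest was vps-60 (rank 214, signal 67.7, −381 bp), with ranks of 312, 96, 1092 and 538. The AAA ATPase gene vps-4 (rank 635, signal 47.4) ranked 16471 in replicate 1, 860 in replicate 4 and 587 in replicate 5. Replicate 2 had no peak at this summit but another in the promoter window at rank 822. The ESCRT-II gene vps-22 (rank 914, signal 41.7) was the weakest of the 16, with ranks of 12793, 1036 and 1016 in replicates 2, 4 and 5. Replicate 1 had no peak there and another in the window at rank 19424. The summit was nearer to C27F2.9. The pooled list added vps-37 (signal 34.9) and vps-2 (signal 27.8). The vps-37 peak ranked 5750, 6632 and 2162 in replicates 1, 4 and 5, and replicate 2 had only another in the window, at rank 29822. The vps-2 peak was matched in replicate 2 alone, at rank 1717. Replicate 1 had another in its window, at rank 4593, and replicates 4 and 5 had none. At vps-32.1 the strongest peaks of the promoter window ranked 732 in replicate 4 and 1094 in replicate 5, and the pooled one ranked 3856. This gene was also named after its values were seen.

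Of the 5 GARP and EARP tether genes, vps-51 was bound (rank 827, signal 43.2), with ranks of 337 in replicate 4 and 1594 in replicate 5. Replicates 1 and 2 had no peak at the summit, and replicate 1 had another in the window at rank 6189. Its summit was nearer to the divergent gene lin-35, the worm retinoblastoma homolog. None of the 8 HOPS and CORVET genes was bound, and vps-33.1 came closest with a pooled rank of 3458. Of the 3 retromer genes, vps-26 was bound in the pooled list alone (rank 2525, signal 28.3). It ranked 580 in replicate 1, 25496 in replicate 4 and 21744 in replicate 5. Replicate 2 had no peak there and another in the window at rank 8013, so the peak was strong in replicate 1 alone. The kinase genes vps-34 and vps-15 had no pooled promoter peak. None of the 7 sorting nexin genes was bound in the optimal list or in the extended pooled set. The one with a pooled promoter peak was snx-13, at rank 10911 (signal 17.5). An optimal summit (rank 546, signal 50.2) lay in an intron of snx-17, 1032 bp downstream of its nearest 5′ end. It was matched within 100 bp at ranks of 1059, 904 and 1045 in replicates 2, 4 and 5 and not in replicate 1.

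**Figure D3:**
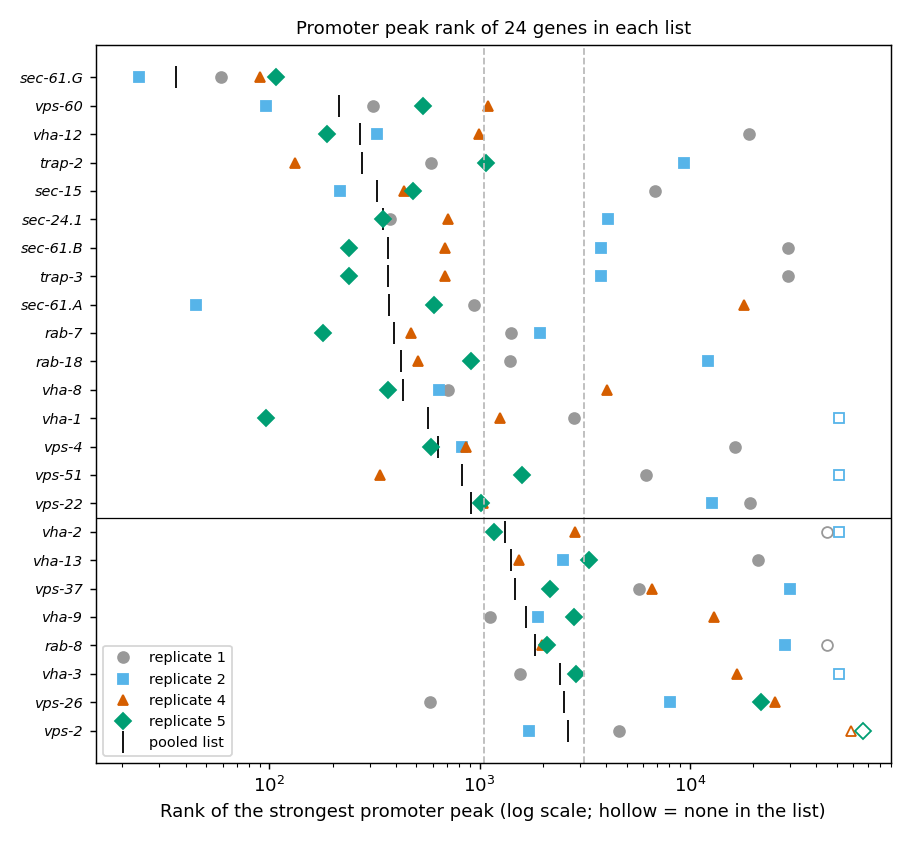
Rank of the strongest peak anywhere in the promoter window (x axis, log scale), which need not be the pooled peak itself, for the 24 genes bound in the extended pooled set, with symbols for each replicate and a bar for the pooled list. The line across separates the 16 genes of the optimal list (above) from the other 8, dashed lines mark the last ranks of the leading and extended sets, and sec-61.G stays between 24 and 108 in every replicate.

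Of the 20 V-ATPase genes 3 were bound in the optimal list and 7 in the extended pooled set, between which the share of all genes rose from 2.95% to 7.84%. In the optimal list were the V1 genes vha-12, encoding the B subunit, and vha-8, encoding the E subunit, and the V0 proteolipid gene vha-1. At vha-12 the summit (rank 271, signal 62.9) lay at −399 bp, and the peak ranked 19142, 327, 994 and 188. It was in the leading set of every replicate but replicate 1. At vha-8 (rank 432, signal 54.1, −456 bp) the ranks were 708 in replicate 1, 4026 in replicate 4 and 367 in replicate 5. Replicate 2 had no peak at this summit but another in the window at rank 641. At vha-1 (rank 569, signal 49.6, −428 bp) they were 1245 in replicate 4 and 96 in replicate 5. Replicates 1 and 2 had no peak there, and replicate 1 had another in the window at rank 2822. The vha-1 summit also lay at −472 bp from sqv-3, a glycosyltransferase gene.

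The pooled list added the proteolipid genes vha-2 (signal 36.6) and vha-3 (signal 28.6), and the V1 genes vha-13 (A subunit, signal 35.4) and vha-9 (F subunit, signal 33.3). The genes vha-1 and vha-2 are neighbours on chromosome III on the same strand. None of the 4 replicates had a peak within 100 bp of the vha-2 summit. Other peaks in its promoter window ranked 2850 in replicate 4 and 1170 in replicate 5. The vha-3 peak ranked 16767 in replicate 4 and 2864 in replicate 5. Replicate 1 had only another in that window, at rank 1561, and replicate 2 had none. The vha-13 peak ranked 2497, 1540 and 3302 in replicates 2, 4 and 5, and replicate 1 had only another in the window, at rank 21185. The vha-9 peak ranked 1127, 1897 and 2806 in replicates 1, 2 and 5, and replicate 4 had only another, at rank 13001. Among the genes named vha-, those for the large V0 a subunit were vha-5, vha-6 and vha-7, and none of them was bound. An optimal summit (rank 953, signal 41.0) lay at −1852 bp from vha-5, and it was noted after the data were seen. By sector, 3 of 9 V0 genes and 4 of 9 V1 genes were bound in the extended pooled set.

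The last gene inside the optimal list was vps-22 (signal 41.7), and the first outside was vha-2 (rank 1319, signal 36.6). For the extended pooled set, vps-2 (rank 2634) was the last inside and sec-12 (rank 3273, signal 25.8) the first outside. The deposited −log10 q-values were 0.753 at vps-2, 0.804 at vps-26 and 0.846 at vha-3, and 2.31 at vps-22. All but 2 of the 16 gene and summit pairs of the optimal list were upstream of the 5′ end, with a median position of −338.5 bp. For the other promoter summits of the list the median was −287 bp.

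Summits at these genes often lay in the promoters of several genes. Of the 15 optimal summits, 11 (73.3%) lay in promoters of at least 2 genes, and of the other 478 promoter summits 96 did (20.1%). In the extended pooled set the counts were 15 of 23 (65.2%) and 261 of 1369 (19.1%). A summit was counted with the 101 genes if any gene whose promoter held it was among them. Summits in several promoters thus had more chances to be counted with them, so these shares are not like for like. The 101 genes had a median gap of 586 bp to the next protein-coding gene upstream, and all genes one of 938 bp. The part of this spacing in the counts was not tested. When each summit was given only to its nearest 5′ end, 10 of the 101 genes were bound, beside 2.39% of all genes. The 6 lost were rab-7, sec-15, sec-61.B, vha-8, vps-22 and vps-51.

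**Figure D4:**
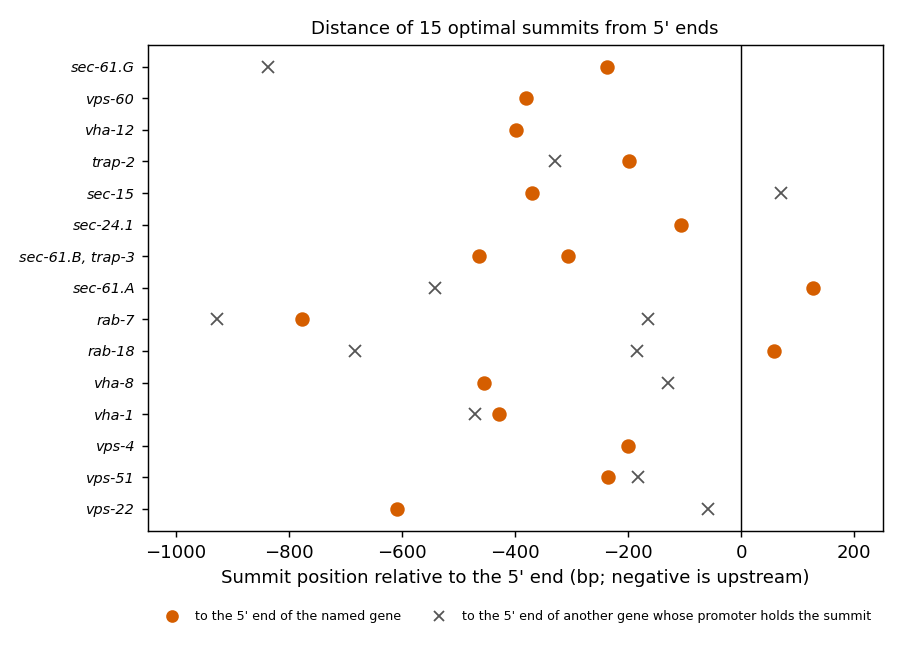
Position of the 15 optimal summits at these genes (one per line) relative to 5′ ends (x axis, bp, negative is upstream), with dots for the named genes and crosses for other genes whose promoter holds the same summit. Crosses stand on 10 lines, and the line of sec-61.B and trap-3 has 2 dots.

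The sequence at the summits was not used to choose the genes. None of the 15 optimal summits had a GATA motif within 50 bp, a count that allows up to 3 of the 15. The flank 350 bp to the left held one at 4 of the 15. Of the other 478 promoter summits of the list, 177 (37.0%, Wilson 95% interval 32.8 to 41.4) held the motif. For the 15 optimal summits at these genes the Wilson upper bound was 20.4%, below the interval for the other promoter summits. Both intervals cover counting error within the optimal list only. They leave out the spread between replicates, so this comparison is a description and carries no test. In windows of 101 bp centred 338 bp upstream of every protein-coding gene the share was 21.1%. Among the 23 summits of the extended pooled set, 3 held the motif, those at vha-2, vha-13 and vps-26 (Wilson 95% interval of the share, 4.54% to 32.1%). Of the other 1369 promoter summits 472 (34.5%) did. Ribosomal protein summits were also low, with 3 of 23 in the optimal list and 6 of 39 in the extended pooled set. The summit shared by sec-61.A and rps-18 counts in both groups.

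Across replicates the shares were compared in the extended sets. The motif stood at 2 of 13 summits in replicate 1, 3 of 18 in replicate 2, 4 of 22 in replicate 4 and 1 of 26 in replicate 5. The other promoter summits held it in 25.7%, 24.8%, 35.5% and 33.8% of cases. The difference was −10.3, −8.15, −17.3 and −30.0 percentage points (mean −16.4 ± 9.84, SD, n = 4), below 0 in 4 of 4 replicates. An exact sign-flip permutation test over the replicates, two-sided, gave p = 0.13, the smallest that 4 replicates allow. No replicate reversed the sign when left out.

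**Figure D5:**
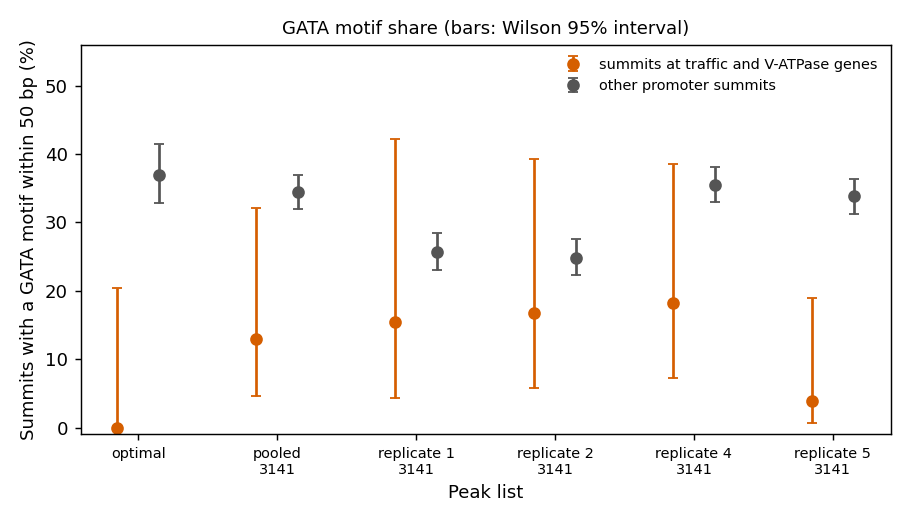
Percentage of promoter summits with a GATA motif within 50 bp (y axis) in 6 peak lists (x axis, the optimal list and the extended sets), for summits at the traffic and V-ATPase genes and for the other promoter summits, with Wilson 95% intervals. The traffic and V-ATPase genes lie lower in all 6 lists, at 0 in the optimal list, and the intervals overlap in the extended pooled set and in replicates 1, 2 and 4.

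Other sequences were present at these summits. The repeat GAGAGA, on either strand, lay within 50 bp of 5 of the 15 optimal summits (33.3%, Wilson 95% interval 15.2 to 58.3), those of sec-61.G, vps-60, vha-12, sec-15 and vha-8. It lay at 21.3% of the other promoter summits (17.9 to 25.2), within that interval, and in 5.89% of the windows upstream of all genes. The 6-mers ACGCAG and CGTCTC, on either strand, were at 3 and 4 of the 15. They stood at 14.2% and 14.0% of the other promoter summits, and in 2.42% and 3.0% of the windows upstream of all genes. ACGCAG was at sec-61.G, trap-2 and vha-1, and CGTCTC at sec-61.G, vps-60, vha-12 and rab-18. The longest run shared between 2 of the 15 windows was 12 bases, between rab-7 and vha-8, on opposite strands. The median GC content within 50 bp was 47.5% at these summits and 44.6% at the other promoter summits. A match describes these letters alone and is not a measured binding site.

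Other genes of the same pathways, 92 found in the annotation, were also counted, beside 2.95% of all genes in the optimal list and 7.84% in the extended pooled set. The ER folding list had 5 of 10 genes in the optimal list, led by the protein disulfide isomerase gene pdi-3 (signal 96.1), the BiP chaperone gene hsp-3 (signal 78.9) and pdi-6 (signal 60.6). The 10 genes for signal recognition, signal peptidase and glycosyltransferase had 1, the oligosaccharyltransferase subunit gene dad-1 (signal 73.0), and dad-1, pdi-3 and hsp-3 were bound in the leading sets of all 4 replicates. In the extended sets pdi-6 was bound in all 4 as well. The 15 clathrin and adaptor genes had 1 in the optimal list, dpy-23 (signal 60.5), and 6 in the extended pooled set. None of the 7 COPI coat genes or the 2 Arf and Sar genes found by name was bound in either list. Of 27 further SNARE genes 0 were bound in the optimal list and 3 in the pooled one, led by nbet-1 (signal 34.4). The lysosome list had 0 and 1 of 14, the 1 being cpl-1, and the p24 cargo receptors 0 and 1 of 7, the 1 being tmed-10. In all, 7 of the 92 genes were in the optimal list and 17 in the extended pooled set. Of the 8 genes named from these lists, cpl-1 alone had a GATA motif at its summit.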

How the data were processed

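Peak lists in narrowPeak form were analysed for 4 biological replicates of ELT-3 ChIP-seq in L3 larvae. The deposited listings describe a list per replicate with 30000 peaks and background regions, meant as input to the irreproducible discovery rate procedure. The pooled list of 14525 is of the same kind and also holds background regions. The optimal list of 1047 held the strongest pooled peaks. Controls were not analysed here. Caller, aligner and depth are not given in the sources used, so no depth or floor per library can be stated. The list of replicate 2 was assigned from the listings of its 3 libraries, which alone name its alignment as their own.

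The deposited signal value, from the authors' peak caller, was used only to rank peaks within a list, with ties ordered by the deposited −log10 q-value and position. The signal at rank 1047 was 12.3, 10.7, 17.8 and 12.1 in replicates 1, 2, 4 and 5. Mitochondrial peaks were left out. The ce10 lists were not used. Genes and 5′ ends came from Ensembl release 115 on WBcel235, the ce11 build, and sequence from the RefSeq assembly of the same build, with no coordinate converted. Positions count from 1. Python 3.11.15, pandas 2.3.3 and SciPy 1.17.1 were used, and the assignment of summits was tested on simulated summits.

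The members, role lists and pathway lists were chosen with earlier results of these data known. Named genes were all members in the optimal list, up to 15 of those bound only in the 3141 pooled peaks (8 existed), the strongest member of a name class with none, the members beside each limit, and up to 3 genes per pathway list. The role lists left vps-13 and vps-45 unassigned. Alternatives were other promoter windows, the nearest 5′ end, other numbers of peaks, motifs, motif windows and matching distances, and leaving out each replicate.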

Additional observations from a re-analysis of the deposited data

Results flagged for a closer look

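A single replicate stood far from the rest in 5 of 17 quantities examined. The rule used flags about 1 in 20 by chance only for normally distributed values, and peak ranks are strongly skewed. Whether the 5 exceed chance can therefore not be told, and they are listed as descriptions. All were ranks of the replicate peak nearest to an optimal summit, within 100 bp. Replicate 1 had rank 19142 at vha-12, 22093 at sec-15 and 29373 at sec-61.B and trap-3. Replicate 2 had rank 4070 at sec-24.1, and replicate 4 had rank 18193 at sec-61.A. The numbers of bound genes, in all and by class, were not among the 5.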

How the results depend on the processing

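Among bound genes, counting only the nearest 5′ end gave 10 in the optimal list and a mean of 7.0 per replicate. All pooled peaks gave 43. The extended replicate sets gave a mean of 19.75 and 26 genes in at least 2 replicates. The share of all genes was not counted beside the 26, so that count cannot be set against a background. Leaving out each replicate in turn gave a mean of 9.667 to 12.33, and 9 to 14 genes in at least 2 replicates. The cause of these shifts was not tested, apart from the larger number of peaks used. The other windows gave 13 and 19 in the optimal list. The GATA motif share at the pooled summits was 4.35% for TGATAA, 34.8% for any GATA and 0.0% in the optimal list. The motif difference stayed below 0 in each alternative run, from −29.0 points with the leading sets to −8.87 points with 25 bp on each side, and was −23.7 in replicates 4 and 5 and −9.23 in replicates 1 and 2, a setting added after seeing the data. The mean of the median replicate ranks at the 15 optimal summits was 7458.5 with matching within 100 bp. It was 15155 within 50 bp and 1593 within 200 bp, so these medians depend on the distance, which also sets how many summits are matched. In each median a summit without a match was placed below all matched ones, so the medians are not those of matched peaks alone. Within 100 bp the medians were 16471, 12171, 709 and 483 in replicates 1, 2, 4 and 5, with 11, 9, 15 and 15 summits matched. At the other promoter summits they were 4644.5, 4352, 712.5 and 818, with 325, 338, 444 and 428 of 478 matched. No paired analysis was possible because there was 1 group. With 15 summits, only large differences in motif share could be detected, and read depth is unknown.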
